A study of Rattus norvegicus with 108 samples.

Results

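In 8 of the 19 replicates of this study, tissue of the rat dentate gyrus was run in 2 separate 10x Genomics reactions, and the first reaction of each replicate was compared with the second. The members are these 16 of 27 reactions, with 1826 of 3347 cells, chosen because a replicate had 2 reactions. First and second follow the order of the reaction numbers in the labels. The first reactions held 1042 cells and the second 784. The pairs are dorDG Sham replicates 1 and 2, dorDG FT replicates 1 and 2, and the same 4 of venDG.

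The dorsal (dorDG) and ventral (venDG) dentate gyrus were punched from brains of male Long-Evans rats that were 2 months of age when treatment began. The FT group received the serotonin reuptake inhibitor fluoxetine at 18 mg per kg in its drinking water for 6 weeks, and the Sham group received water. Each replicate pools tissue of 3 animals, and by the supplementary methods a whole-cell suspension was made with papain from a portion of the tissue and a nucleus suspension from an aliquot. The labels mention nuclei alone, and neither source says which reaction held which suspension, so the reactions are named by their order only.

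As background, a whole cell brings cytoplasmic messenger RNA into a droplet, including the highly translated transcripts of ribosomal proteins and metabolic enzymes, whereas a nucleus holds mainly young and nuclear-retained RNA, much of it from long genes with large introns. Dissociation of fresh brain tissue with warm enzymes is known to switch on immediate early genes, heat shock genes and, in microglia, inflammatory chemokines within the working time. The dentate gyrus is a granule cell layer with mossy cells, interneurons, glia and vessels, and neurons and glia do not survive dissociation equally well.

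Parts of 7 promoters of genes that differed are shown first, because they hold the letters of a motif known for a regulator of their group. The motif is in capitals, with 25 bases on each side. Each motif was searched in 300 bases, from 250 before to 50 after the transcription start. The motifs and their spelling were chosen after it was known which groups differed. The NF-kB consensus site was present on either strand in 5 of the 9 chemokine and cytokine genes with a RefSeq promoter, Cxcl1, Cxcl2, Nfkbia, Nfkbiz and Cd83 (55.6%), and in 2087 of 27457 promoters of the rat (7.6%). The cAMP response element TGACGTCA, which reads the same on both strands, was present in 2 of 8 immediate early genes (25%) and in 1.91% of all promoters. The CArG box, the core of serum response elements, was present on either strand in 3 of those 8, Egr1, Klf6 and Zfp36 (37.5%), and in 1.64% of all. The pyrimidine run CTTTC, searched on the strand of the gene from 10 bases before to 20 bases after the start, was present in 21 of 53 ribosomal protein genes (39.6%) and in 3.41% of all promoters. All coordinates are of GRCr8, and the sequences run along the strand of the gene.
Nfkbia, the inhibitor of NF-kB, chr6:78597069-78597128, minus strand, with the motif on the opposite strand: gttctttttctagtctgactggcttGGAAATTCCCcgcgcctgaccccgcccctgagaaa
Nfkbiz, a nuclear regulator of NF-kB, chr11:58251683-58251742, plus strand: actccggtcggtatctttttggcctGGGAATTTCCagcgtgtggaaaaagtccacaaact
Cxcl1, a neutrophil chemokine, chr14:17479371-17479430, minus strand: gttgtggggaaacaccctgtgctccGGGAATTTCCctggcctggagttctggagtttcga
Cxcl2, a related chemokine, chr14:17467295-17467354, minus strand: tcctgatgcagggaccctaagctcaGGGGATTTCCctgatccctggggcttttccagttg
Dusp1, a phosphatase of MAP kinases, chr10:17184704-17184761, plus strand: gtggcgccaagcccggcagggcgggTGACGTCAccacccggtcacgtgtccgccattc
Btg2, an anti-proliferative early response gene, chr13:48087859-48087916, minus strand: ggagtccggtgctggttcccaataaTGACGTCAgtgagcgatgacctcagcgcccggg
Rpl35, a protein of the large ribosomal subunit, chr3:43165896-43165950, minus strand: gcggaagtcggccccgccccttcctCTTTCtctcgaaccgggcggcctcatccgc
A match describes the letters of a window and nothing about binding.

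The reactions differed in depth. The unique molecular identifiers (UMIs) of a reaction, which count captured RNA molecules, summed to 407756 to 1016461 in the first and 121356 to 514819 in the second reactions. The median per cell was 3262 to 6241 UMIs in the first reactions and 1516 to 2723 in 7 of the second, while the second reaction of dorDG FT replicate 1, with only 23 cells, stood apart at 5323. With each cell thinned to 1000 UMIs the median number of genes per cell was 665 ± 13.2 (SD, n = 8) in the first and 738 ± 49.8 in the second reactions, higher in the second in 7 of 8 pairs (exact two-sided sign-flip permutation p = 0.0156, adjusted p = 0.0187). Thinning left out 65 cells of the first and 141 of the second reactions, and before thinning the medians were 2149 ± 334 and 1396 ± 618 genes. Over 351 pairs of reactions, 9 cell barcodes were shared, of which 0 were within a replicate.

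Of 4378 genes tested over the 8 pairs, edgeR called 1746 higher (39.9%) and 1646 lower (37.6%) in the second reactions, at an adjusted p of at most 0.05 and a log2 fold change of at least 0.32 in size. Most genes that could be tested thus differed between the reactions, and a group of genes has to be read against these shares. The 8 values of each side did not overlap for 1117 genes (25.5%) that were above in the second and for 878 (20.1%) that were above in the first. Levels are relative: with scaling by total UMIs instead of TMM, the median log2 fold change (second minus first) of all genes moved from 0.13 to 0.60, and the calls split into 2290 higher and 1342 lower. TMM is computed from the tested genes, so small fold changes also depend on the filter that sets which genes are tested. Sums over a reaction cannot tell fewer cells of a type from less RNA per cell.

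The chemokine and cytokine genes were lower in the second reactions by the widest margin of the gene lists. All 12 tested members were called lower, with a median log2 fold change of −7.60. The list took 0.760% to 2.89% of the UMIs in the first and 0.00486% to 0.0135% in the second reactions, with no overlap (mean 1.38% ± 0.67 and 0.00933% ± 0.00332, SD, n = 8 pairs, exact sign-flip permutation p = 0.00781, adjusted p = 0.0107). That p is the smallest that 8 pairs can give. It takes the pairs as independent, while dorDG and venDG replicates of the same number may hold the same animals. With 4 independent pairs the smallest possible p would be 0.125. The same limit holds for every test of a share over 8 pairs.

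Ccl3, a ligand that attracts monocytes, was measured in the first reactions at 26.9, 25.4, 41.8 and 115.3 UMIs per 10000 in dorDG FT replicates 1 and 2 and Sham replicates 1 and 2, and at 30.4, 51.5, 40.9 and 34.4 in the same order of venDG. In the second reactions it was at 0.0194 in dorDG Sham replicate 1, 0.0549 in venDG FT replicate 2 and 0 in the other 6. Every first reaction lay far above every second one, and dorDG Sham replicate 2 was the highest of the first. Summed, 22574 UMIs stood against 3, a ratio of counts per total of 3242 (95% interval 1109 to 15720, for counting error only). The related ligand Ccl4 had 17889 UMIs in the first and 0 in the second reactions, which is at least 2569-fold higher, with 3 counts over the group as the floor. The neutrophil chemokine Cxcl2 had 7223 and 0, at least 1037-fold higher. The cytokines Il1b (5171 and 2 UMIs) and Tnf (1105 and 2) and the signalling regulator Rgs1 (1588 and 2) had ratios of 1114 (308 to 9200), 238 (65.7 to 1968) and 342 (94.5 to 2827). The smallest differences of the list were those of the NF-kB inhibitors Nfkbia (log2 fold change −4.57 ± 0.26 SE, edgeR adjusted p = 3.3e-09) and Nfkbiz (−4.32 ± 0.37, adjusted p = 7.3e-08).

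The immediate early genes, which stimulated cells transcribe within minutes, were called lower too, in 12 of 12 tested members, with a median of −5.51. Of 19 in the tables, these 12 passed the level filter, a mean of 0.5 UMIs per 10000 over both reactions. Fos, Fosb and Atf3 were below 0.5 in every second reaction and passed through the first reactions alone, as did Ccl3, Ccl4, Cxcl2, Il1b, Tnf and Rgs1. For such genes the filter fixes the direction, so a count of all tested members is no evidence by itself. The summed share of the immediate early list was 0.370% to 0.805% in the first and 0.0113% to 0.0410% in the second reactions. Fos, a subunit of the AP-1 transcription factor, was at 14.3, 15.6, 14.0 and 19.1 UMIs per 10000 in the first reactions of dorDG, in the order given above, and at 14.5, 5.68, 15.7 and 12.8 in those of venDG. The second reactions held 0, 0.0503, 0.0389 and 0 in dorDG, and 0.198, 0.0274, 0.0443 and 0 in venDG. The lowest first reaction, venDG FT replicate 2, was still far above the highest second one, venDG FT replicate 1 (log2 fold change −8.58 ± 0.41, adjusted p = 1.2e-09). Fosb, a relative of Fos, and Atf3, a stress-induced factor, differed by −8.03 ± 0.38 and −7.68 ± 0.38. Dusp1 and Btg2, whose windows are shown above, differed by −4.84 ± 0.42 and −5.15 ± 0.29. The smallest difference of the list was that of the factor Klf4, −3.69 ± 0.40.

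Heat shock genes, which encode chaperones for unfolded proteins, were lower in all 9 tested members, with a median of −3.46. Their share was 0.57% to 0.686% in the first and 0.0571% to 0.0874% in the second reactions, narrow ranges that were 8.44-fold apart in their means. Hsp90aa1, the inducible form of the chaperone Hsp90, was at 17.1 to 21.0 UMIs per 10000 in the first reactions and at 1.22 to 2.18 in the second. The inducible Hspa1a and Hspa1b did not reach the level filter of 0.5 UMIs per 10000.

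**Figure D1:**
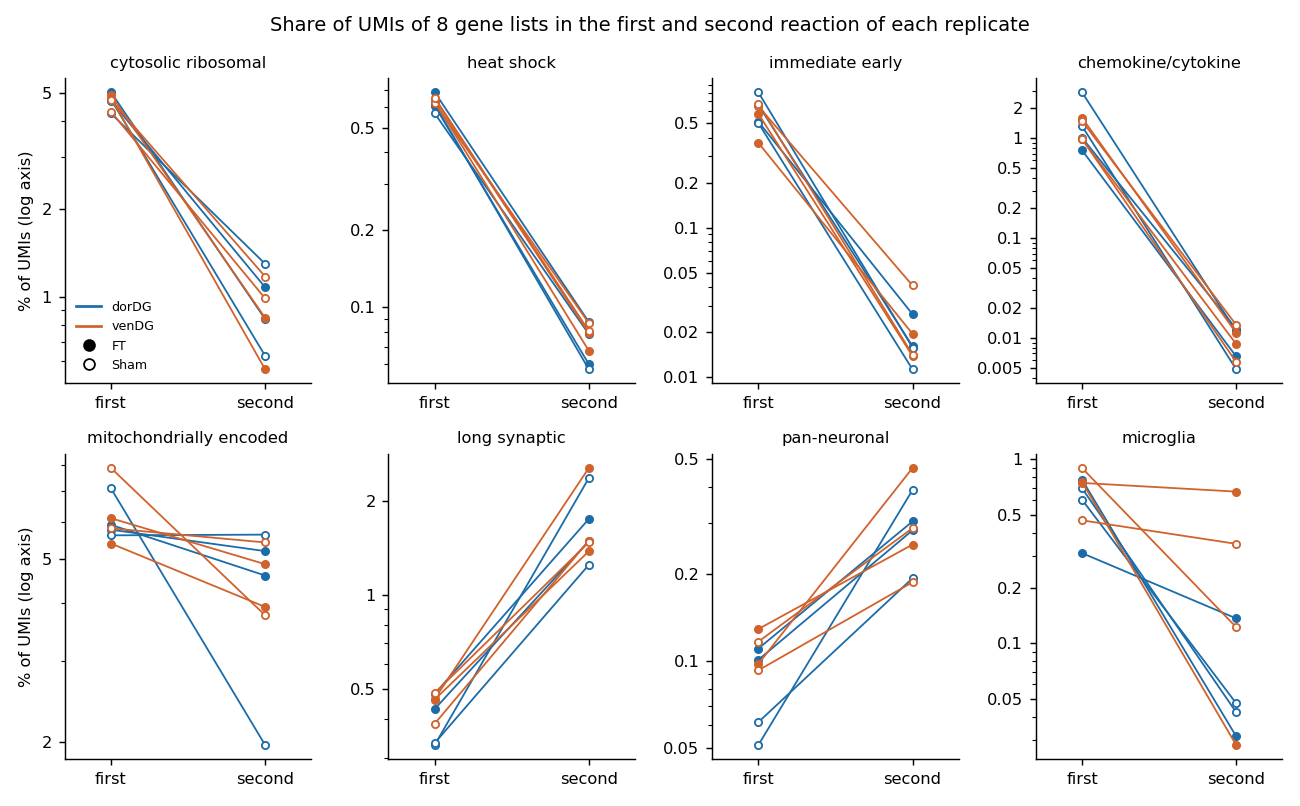
Share of UMIs (%, log axis) of 8 gene lists in the first and second reaction; each line joins the reactions of 1 replicate, with dorDG in blue, venDG in orange, FT filled and Sham open. The ribosomal, heat shock, immediate early and chemokine lists fell on every line without overlap, the long synaptic list was higher in the second reaction of 8 of 8 replicates, and the microglia list was nearly level in venDG FT replicate 2.

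Genes of the cytoplasmic machinery formed the largest group. Of 70 tested cytosolic ribosomal protein genes 69 were called lower, with a median of −3.02, and Rps2 was not called, at 0.45. The ribosomal share was 4.67% ± 0.27 (4.24% to 5.01%) in the first and 0.925% ± 0.256 (0.563% to 1.3%) in the second reactions. Rpl35, shown above, was at 11.2 to 15.4 UMIs per 10000 in the first and at 1.70 to 3.57 in the second. All 16 translation factor genes were lower (median −2.24), among them Tpt1 and Eef2, as were all 16 abundant cytosolic genes (median −3.06). Tmsb4x, which binds actin monomers, fell from 78.2 to 106.8 per 10000 in the first reactions to 8.99 to 29.2 in the second. Genes of the secretory route in the endoplasmic reticulum (11 of 11, median −2.26) and of the lysosome (15 of 15, median −2.25) were lower as well. Nuclear genes of oxidative phosphorylation were lower in 65 of 69 tested members, with a median of −2.12. Copies and pseudogenes of ribosomal and oxidative phosphorylation genes can share reads, so single members are less certain than the lists.

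Mitochondrially encoded genes, whose RNA stays in the mitochondria, moved less. All 11 were called lower, but with a median of −1.06, and 5 of 11 were with scaling by total UMIs (median −0.59). Their share was 6.2% ± 0.84 in the first and 4.42% ± 1.19 in the second reactions, lower in the second in 7 of 8 pairs (exact sign-flip permutation p = 0.0156, adjusted p = 0.0187). The ranges overlapped, at 5.39% to 7.86% and 1.97% to 5.64%, and dorDG Sham replicate 1 had the lowest second value. In dorDG Sham replicate 2 both reactions were at about the same share, 5.62% and 5.64%.

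Long genes of synapses were mostly higher in the second reactions. Of 25 tested members of the long synaptic list 23 were called higher, 1 lower and 1 not called, with a median of 1.60, and their share was 0.330% to 0.485% in the first and 1.2% to 2.56% in the second reactions (ratio of means 4.08, higher in 8 of 8 pairs, exact permutation p = 0.00781). The member called lower was the protocadherin Pcdh9, at −1.39 ± 0.25, and Dscam was not called. Over all genes, the highest changes were ranked among named genes called with 1 sign in 8 of 8 pairs at 1 or more UMI per 10000 on average. The first 10 were Epha6, an ephrin receptor (3.0 ± 0.24), Shisa6, an auxiliary subunit of AMPA receptors (2.85 ± 0.28), Kctd16, an auxiliary subunit of GABA-B receptors (2.74 ± 0.23), Nrxn3, a presynaptic neurexin (2.71 ± 0.23), Gria1, an AMPA receptor subunit (2.67 ± 0.22), Grin2b, an NMDA receptor subunit (2.61 ± 0.27), Pdzrn3, Kcnj3, a potassium channel, Leng8 and Schip1 (2.40 ± 0.21). Of these, Nrxn3 alone is on the long synaptic list. Epha6, Shisa6, Nrxn3, Pdzrn3, Kcnj3 and Leng8 averaged 0.264 to 0.419 UMIs per 10000 in the first reactions, under the level filter of 0.5. They were tested only through their second reactions, so for them the filter fixes the direction. The count of called long synaptic genes has the same limit, while the summed share includes members that were not tested.

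Gria1 was at 2.18, 3.47, 1.34 and 1.28 UMIs per 10000 in the first reactions of dorDG and at 2.07, 1.55, 0.939 and 2.67 in those of venDG. In the second reactions it was at 16.1, 31.4, 20.8 and 18.6 in dorDG and at 18.0, 11, 5.06 and 19.4 in venDG. The second reaction of venDG Sham replicate 1 was the lowest of its group and was still above every first reaction. Epha6 was at 0.262 to 0.642 in the first and 2.35 to 7.17 in the second reactions. The neuronal noncoding RNA Snhg11, the only member of the nuclear noncoding RNA list in the tables (1 of 11 listed), was at 0.0491 to 1.56 and 2.28 to 10.2 (log2 fold change 2.31 ± 0.35, adjusted p = 3.0e-05).

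Splicing factor genes, several of which keep introns in the nucleus, did not all move alike. Of 15 tested, 8 were called higher, 3 lower and 4 neither, with a median of 0.41. With scaling by total UMIs, 9 were higher and 1 lower (median 0.88). Their summed share was 0.294% ± 0.0395 in the first and 0.45% ± 0.0624 in the second reactions. It was higher in 8 of 8 pairs (exact sign-flip permutation p = 0.00781, adjusted p = 0.0107), with ranges that overlapped. Pnisr (1.18 ± 0.19), Luc7l2 (1.06 ± 0.16) and Srrm2, a scaffold of nuclear speckles (0.95 ± 0.23), were higher. Tra2b (−1.40 ± 0.22), Hnrnpa2b1 (−0.68 ± 0.20) and Ddx5 (−0.46 ± 0.20) were lower, but with scaling by total UMIs only 1 of these 3 calls was left, with Hnrnpa2b1 at −0.21 and Ddx5 at 0.0045. With the level filter raised to 2 UMIs per 10000, Hnrnpa2b1 turned to 0.20 and was not called, and Ddx5 turned to 0.42 and was called higher (edgeR adjusted p = 0.0464).

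**Figure D2:**
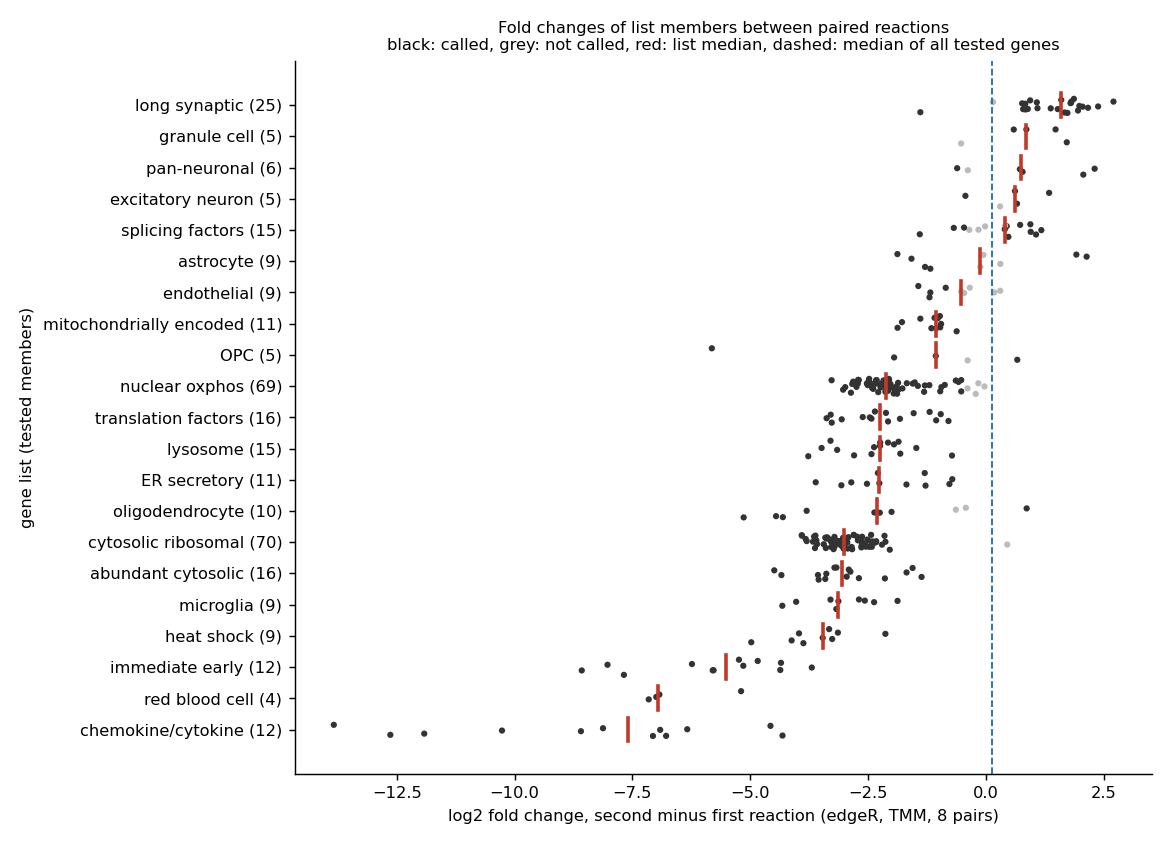
Log2 fold change, second minus first, of the tested members of 21 gene lists; black points were called, grey points were not, red bars are list medians and the dashed line is the median of all tested genes (0.13). The chemokine list has the lowest median (−7.60) and the long synaptic list the highest (1.60).

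Markers of cell types were compared next, as venDG counts come without type names. Microglial genes were lower in all 9 tested members (median −3.13), and Cx3cr1, P2ry12 and Tmem119 did not reach the level filter. Their share was 0.310% to 0.897% in the first and 0.0281% to 0.668% in the second reactions, lower in 8 of 8 pairs but with overlap. Ctss, a microglial protease, was at 11.6 to 38.3 UMIs per 10000 in the first reactions, and in the second at 1.07 to 11.3 in 7 and at 31.5 in venDG FT replicate 2, above the 27.4 of its first reaction. In that replicate the microglial share was 0.744% in the first and 0.668% in the second reaction, while the chemokine share was 1.60% and 0.0112%. Its microglial genes did not keep 1 ratio, with Tyrobp, an adaptor of microglial receptors, at 6.82 and 1.73 UMIs per 10000 and the complement gene C1qa at 11.2 and 8.73. The part of microglial content in the chemokine values was not tested.

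Red blood cell genes were lower in 4 of 4 tested members (median −6.96). The alpha globin Hba1 was at 27.2 to 140.4 UMIs per 10000 in the first reactions, and in the second at 13.4 in dorDG Sham replicate 2, 18.3 in venDG Sham replicate 1 and 0.0194 to 0.523 in the other 6 (log2 fold change −7.16 ± 0.91, adjusted p = 5.1e-06). The globin share varied widely within either group, from 0.699% to 3.77% and from 0.00389% to 0.406%.

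Pan-neuronal genes had a higher share in the second reactions in 8 of 8 pairs, 0.0948% ± 0.0266 and 0.295% ± 0.094, but their members did not move alike. Syt1, a calcium sensor of vesicle release, was higher by 2.07 ± 0.24, Snap25 by 0.78 ± 0.28 and the dendritic Map2 by 0.72 ± 0.19, whereas Syn1 was lower (−0.61 ± 0.26) and Stmn2 was at −0.38 ± 0.34 and not called. Of 6 tested members 4 were higher and 1 lower, and 0 were lower with scaling by total UMIs or without dorDG FT replicate 1. Granule cell markers were higher in 4 of 5, led by Stxbp6 (1.72 ± 0.20) and including Prox1, the transcription factor of granule cell identity (0.86 ± 0.26). Excitatory markers were higher in 3 of 5 and lower in 1, Mef2c, which turned to 0.0295 with scaling by total UMIs and was not called without dorDG FT replicate 1 (−0.29). Inhibitory markers were higher in 2 of 3, Kcnc2 and Erbb4, and lower in 1, the neuropeptide Cck (−1.84 ± 0.32), while Gad1 and Gad2 did not reach the filter. Erbb4 is also on the long synaptic list. Mossy markers were higher in 1 of 4 and lower in 2, not far from the shares over all tested genes (39.9% and 37.6%). Their median of −0.45 turned to 0.02 with scaling by total UMIs. The summed mossy share was 0.0382% ± 0.0092 in the first and 0.0672% ± 0.0149 in the second reactions. It was higher in 8 of 8 pairs, as were the granule, inhibitory and excitatory shares (exact sign-flip permutation p = 0.00781, adjusted p = 0.0107 for each). A share is scaled by total UMIs and includes members that were not tested.

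Astrocyte markers split by gene. The glutamate transporter Slc1a2 (1.92 ± 0.48) and the bicarbonate transporter Slc4a4 (2.14 ± 0.24) were higher, and Apoe (−1.88 ± 0.26), Gja1, Aldoc and the water channel Aqp4 were lower, 2 and 4 of 9 tested, with a median of −0.12 that turned to 0.36 with scaling by total UMIs. Oligodendrocyte precursor markers gave 1 higher (Tnr) and 3 lower of 5, among them Olig1 at −5.82 ± 0.37. Without dorDG FT replicate 1 they gave 0 higher and 2 lower, with Tnr at 0.58, and Tnr was also not called without venDG Sham replicate 2 (0.54). Endothelial markers were lower in 4 of 9 (Bsg, Slc2a1, Esam and Itm2a) and higher in 0, with a median of −0.52. With scaling by total UMIs 3 were lower and 1 higher (median −0.07). For the astrocyte and endothelial lists the part called lower, 4 of 9 in each, was not far from the 37.6% of all tested genes. Of the mural markers 2 of 3 were lower (Tagln and Vtn), but 0 without dorDG FT replicate 1, where Tagln no longer passed the level filter. Vtn was at −1.70 to −0.98 with 1 replicate left out, and was called only without dorDG Sham replicate 2 or venDG Sham replicate 1. The shares of the precursor, endothelial and mural lists and the number of cells did not pass the test (exact permutation adjusted p of 0.0955, 0.195, 0.195 and 0.1). The choroid plexus list had 1 tested member, Enpp2, which was lower (−1.69).

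Myelin genes did not move alike. Cnp, a myelin enzyme, was at 6.69 to 19.4 UMIs per 10000 in the first and 0.0824 to 1.31 in the second reactions (log2 fold change −5.14 ± 0.34, adjusted p = 9.8e-09). Mbp, which encodes myelin basic protein, was at 48.8, 45.1, 99.6 and 122.4 in the first reactions of dorDG and at 44.0, 21.3, 37.0 and 60.2 in those of venDG. Its second reactions were at 48.5, 83.7, 23.7 and 236.6 in dorDG and at 13.9, 24.1, 23.9 and 98.0 in venDG. Mbp was thus lower in the second reaction of the replicates numbered 1, though nearly level in dorDG FT replicate 1 (48.8 and 48.5). It was higher in the second reaction of the 4 replicates numbered 2, by little in venDG FT replicate 2 (21.3 and 24.1). This split was seen after the values were known, and Mbp was not called (−0.64 ± 0.39, edgeR adjusted p = 0.15). Mobp was not called either (−0.42 ± 0.36). In all, 7 of the 10 oligodendrocyte markers were lower, 1 was higher (the transcription factor St18, 0.87 ± 0.28) and 2 were not called.

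**Figure D3:**
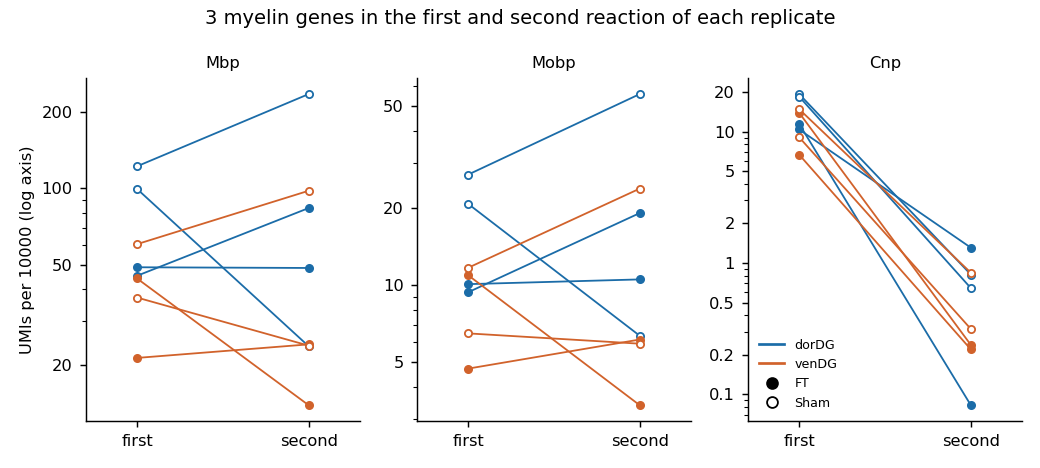
UMIs per 10000 (log axis) of Mbp, Mobp and Cnp in the first and second reaction of each replicate, coloured as in the plot of list shares. Every line of Cnp falls, while the lines of Mbp and Mobp run in both directions.

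The regions were compared through their own fits and through an interaction. In dorDG 1315 of 4337 genes were higher (30.3%) and 1467 lower (33.8%) in the second reactions, and in venDG 1240 of 4388 were higher (28.3%) and 1451 lower (33.1%). Over the 3992 genes tested in both, the log2 fold changes had a Pearson r of 0.965 and a Spearman rho of 0.947 across genes, which are not independent replicates. Of the 2179 genes called in both regions (84.7% of the dorDG and 87.5% of the venDG calls among these 3992 genes), 2178 had the same direction. Ccl4, Cxcl2 and Ccl3 had the lowest values in both. The highest were Epha6, Nrxn3 and Kcnj3 in dorDG (3.17, 3.01 and 2.98) and Kcnc2, Epha6 and Shisa6 in venDG (2.84, 2.79 and 2.76). The interaction of region and reaction gave 0 calls by edgeR (lowest adjusted p = 0.994, 152 genes at an unadjusted p under 0.05) and 0 by DESeq2 (104 genes). That of treatment and reaction gave 0 by edgeR (92 genes) and 0 by DESeq2 (54 genes). By the paper's animal numbers, both regions of a treatment group came from the same rats. Replicates of dorDG and venDG that share a number and treatment may thus hold the same animals, which the labels do not state. The tests over 8 pairs take the pairs as independent. Summed by number to 4 pairs, these replicates gave 3228 called genes, of which 1606 were higher.

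In dorDG the authors' annotation names 12 cell types, and their shares differed between reactions. With 4 pairs no exact test can go below p = 0.125, so the shares are given as values. Cells annotated Oligodend2 made up 9.17%, 11.1%, 12.2% and 27.9% of the first reactions (FT replicates 1 and 2, Sham replicates 1 and 2; 53 cells) and 0%, 0%, 0% and 1.3% of the second (1 cell). Microglia1 made up 11.7%, 5.13%, 15.3% and 22.95% of the first reactions (49 cells) and 2 cells of the second, 1 of 80 in FT replicate 2 and 1 of 132 in Sham replicate 1. The 0 of 23 cells in FT replicate 1 allows up to 14.8% (95% exact binomial interval), so that reaction says little about a type on its own. The shares of both types were higher in the first reaction of all 4 pairs, without overlap.

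Cells annotated Granule lay the other way, at 4.17%, 3.42%, 1.02% and 4.92% of the first and 17.4%, 23.8%, 6.06% and 41.6% of the second reactions. InhibNeuron cells were uneven: 30.4% and 34.8% of the second reactions of FT replicate 1 and Sham replicate 1, and 0% of those of FT replicate 2 and Sham replicate 2. ExcitNeuron cells were at 27.5% in the second reaction of FT replicate 2 and at 0% to 4.55% in the others. Microglia2 cells were at 11.7% ± 3.0 in the first and 2.70% ± 4.07 in the second (SD, n = 4), with FT replicate 2 level at 8.55% and 8.75%. Endothelial (13.3% ± 4.3 and 14.1% ± 5.6) and Oligodend1 cells (10.8% ± 1.6 and 13.9% ± 9.9) differed by less than the spread between pairs. Without FT replicate 1, where 0 of 23 cells of the second reaction were Oligodend1, that type was at 11.6% and 18.6% and higher in the second reaction of the other 3 pairs. AstroSub1 cells had a higher share in the second reaction of 3 of 4 pairs (4.82% ± 2.86 and 11.5% ± 6.1), and OPC (10.2% and 4.11%), Mossy (8.0% and 3.88%) and BergGlia cells (5.00% and 1.40%) had the higher mean in the first. The differences of OPC, Mossy and BergGlia cells were also smaller than their spread between pairs. OPC cells were higher in the second reaction of Sham replicate 2 (3.28% and 7.79%), and Mossy cells in that of FT replicate 1 (7.5% and 8.7%). BergGlia cells were higher in the first reaction of 4 of 4 pairs, but the Sham replicates were nearly level. Sham replicate 1 had 3 of 98 and 4 of 132 cells, and Sham replicate 2 had 1 of 61 and 1 of 77. Without FT replicate 1 the Mossy means were 8.16% and 2.28%.

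**Figure D4:**
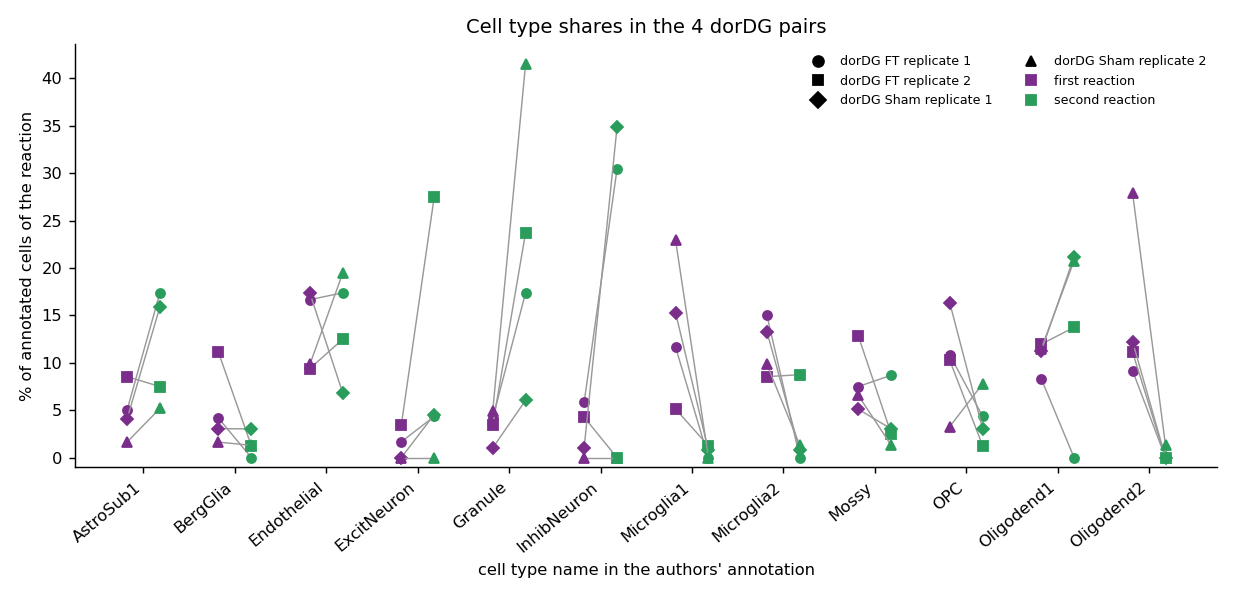
Share of the annotated cells (%) of each dorDG reaction that carry each of 12 cell type names; purple is the first and green the second reaction, and lines join the reactions of 1 replicate. Microglia1 and Oligodend2 lie above in the first and Granule in the second reactions without overlap.

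The names were checked against marker lists, since a name may cover different cells in the 2 reactions. Microglia1, Microglia2, AstroSub1, BergGlia and Endothelial cells had their own list highest among all lists in both reactions (4.07-fold to 38.5-fold over cells of the other types). Cells annotated Mossy did not: mural genes led, at 35.5-fold in the first and 16.5-fold in the second reactions, and their mossy list was at 0.967-fold and 0.466-fold. The 13 Granule cells of the first reactions carried 2706 haemoglobin UMIs per 10000 and a granule list at 0.497-fold of other cells, and the 63 of the second carried 48.0 and 0.856-fold. ExcitNeuron cells (3.38-fold in the first and 1.33-fold in the second) and InhibNeuron cells (1.40-fold and 0.806-fold) did not have their own list highest in either reaction, nor did OPC cells in the second (3.13-fold). In Oligodend1 cells the oligodendrocyte list was at 6.94-fold and 2.43-fold, below the choroid plexus list, whose tested gene Enpp2 oligodendrocytes also express. The Granule and neuron shares above are therefore shares of a name.

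Gene lists were also compared within a type. In Oligodend1 cells, over 3 pairs with at least 5 cells in both reactions (FT replicate 2, Sham replicates 1 and 2), edgeR called 189 of 4178 genes higher (4.52%) and 957 lower (22.9%). Lower were 68 of 69 ribosomal, 54 of 66 oxidative phosphorylation and 3 of 3 immediate early genes, and higher were 10 of 23 long synaptic genes. DESeq2 called 64 ribosomal, 36 oxidative phosphorylation and 3 immediate early genes lower and 3 long synaptic genes higher, and scaling by total UMIs gave 18 long synaptic genes higher. Fos had 96 UMIs in the first and 0 in the second reactions (at least 14.0-fold) and Ccl3 82 and 0 (at least 12-fold). Kctd16 had 3 UMIs in the first and 39 in the second (ratio per total 29.7, 95% interval 9.44 to 150), Ccser1 1 and 19, and Usp37, a deubiquitinase, 1 and 21. The division of the myelin genes was also seen inside this type: Cnp (−4.56 ± 0.69) was called, Mbp (−1.05 ± 0.74, adjusted p = 0.31) and Mobp (−0.77 ± 0.57, adjusted p = 0.35) were not, and St18 was higher (1.55 ± 0.60).

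Endothelial cells, over the same 3 pairs, had 86 of 3958 genes higher (2.17%) and 263 lower (6.64%). All 12 immediate early genes and 8 of 10 heat shock genes were lower. Fos had 217 UMIs in the first and 0 in the second reactions (at least 46.7-fold), Atf3 143 and 0 (at least 30.8-fold) and Fosb 117 and 0 (at least 25.2-fold). Fos, Atf3 and Fosb passed the level filter through the first reactions alone, which fixes their direction. The count of 12 immediate early genes is thus no evidence by itself. Of the long synaptic genes 10 of 21 were higher. DESeq2 called 10 immediate early and 7 heat shock genes lower and 3 long synaptic genes higher. The 3 highest genes were Nsmf, which carries signals from synapse to nucleus, with 0 and 17 UMIs (at least 8.78-fold), Rbfox1, a neuronal splicing factor, with 1 and 30, and Shisa6, with 2 and 32. Leaving out Sham replicate 2 left 1 higher and 22 lower, leaving out FT replicate 2 left 13 and 51, and leaving out Sham replicate 1 left 62 and 138. Nsmf, Rbfox1 and Shisa6 passed the level filter through the second reactions alone, which fixes their direction. Over all 4 pairs the pan-neuronal list was at 3.71 and 13.2 UMIs per 10000 in Endothelial cells, and at 3.26 and 14.0 in Oligodend1 cells. The part of free RNA in the neuronal and synaptic genes of both types was not tested.

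Genes of the cytoplasmic machinery were called in part in Endothelial cells, and the difference from Oligodend1 cells was not tested. Of 75 ribosomal genes 29 were lower (14 by DESeq2), 1 was higher and 45 were not called. Of 65 oxidative phosphorylation genes 2 were lower, and 0 of 11 mitochondrially encoded, 0 of 10 lysosomal and 0 of 11 secretory genes were called by edgeR or DESeq2 (0, 2 and 1 had an unadjusted edgeR p under 0.05). The median ribosomal share of an Endothelial cell was 6.13% in the first and 2.57% in the second reactions, against 3.93% and 0.545% in Oligodend1 and 3.02% and 0.561% in AstroSub1 cells. Of the 38 Endothelial cells of the second reactions, 21 (55.3%) had at least 2% ribosomal UMIs, as had 1 ExcitNeuron, 1 Granule and 1 Mossy cell and 0 of 55 Oligodend1 cells. The boundary of 2% was chosen after the distribution of cells had been seen. Fos was at 0 UMIs in these 38 cells, which allows a share of cells with a UMI of up to 7.89% by a limit of 3 counts (95% exact upper bound 9.25%).

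A fit with at least 3 cells per reaction could also be made for AstroSub1 cells (114 of 4504 genes higher, 2.53%, and 381 lower, 8.46%) and for the cells annotated Granule (8 of 3839 higher, 0.208%, and 249 lower, 6.49%). The latter set cells rich in haemoglobin in the first reactions against others in the second, as the marker check shows.

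Single genes by type showed where the marked genes were found. In the first reactions of dorDG, Ccl3 was at 250.5 UMIs per 10000 in Microglia1 and 63.3 in Microglia2 cells, and at 2.38 to 6.14 in the other 10 types, where 22.7% to 92.3% of the cells had a UMI. Free RNA in droplets gives UMIs to cells of every type, and its part in the lower levels was not tested. In the second reactions Ccl3 was seen in 1 of 312 cells (InhibNeuron), and in 0 of 2 Microglia1 and 0 of 9 Microglia2 cells, which in Microglia2 allows a share of cells with a UMI of up to 33.3% by the same limit (95% exact upper bound 33.6%). Fos was at 2.70 to 15.9 in 11 types of the first reactions and at 47.6 in Oligodend2 cells, the type that was nearly absent from the second. Gria1 was at 0.701 to 2.1 in the glial, vascular and Mossy types of the first reactions and at 6.77 to 21.7 in the same types of the second, where InhibNeuron, Granule and ExcitNeuron cells were at 23.3 to 34.2. The higher level of Gria1 in the second reactions was thus also measured in cells named as glia, and the part of free RNA in it was not tested.

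Cells with under 2% ribosomal UMIs made up 131 of 1042 cells (12.6%) of the first and 724 of 784 (92.3%) of the second reactions. The 60 cells of the second reactions above that boundary had an endothelial share of 1.24% and an immediate early share of 0.0805%. The 911 first-reaction cells above it were at 0.310% and 0.607%, and the 131 below it had an immediate early share of 0.179% and a haemoglobin share of 12.9%.

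The 11 replicates with 1 reaction were placed on the same scales. Their ribosomal shares were 1.88% to 5.03%, of which 4 lay in the range of the first reactions, 0 in that of the second, 6 between them and 1 above both. Their chemokine shares, 0.190% to 1.12%, lay within the first range in 5 and between the ranges in 6, and their immediate early shares, 0.249% to 0.671%, in 6 and 5. Of the long synaptic shares, 0.449% to 1.72%, 2 lay in the first range, 1 in the second and 8 between. Cells with under 2% ribosomal UMIs made up 16% to 73% of these reactions, with dorDG Sham replicate 3 and venDG Sham replicate 3 (61.9%) the highest.

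**Figure D5:**
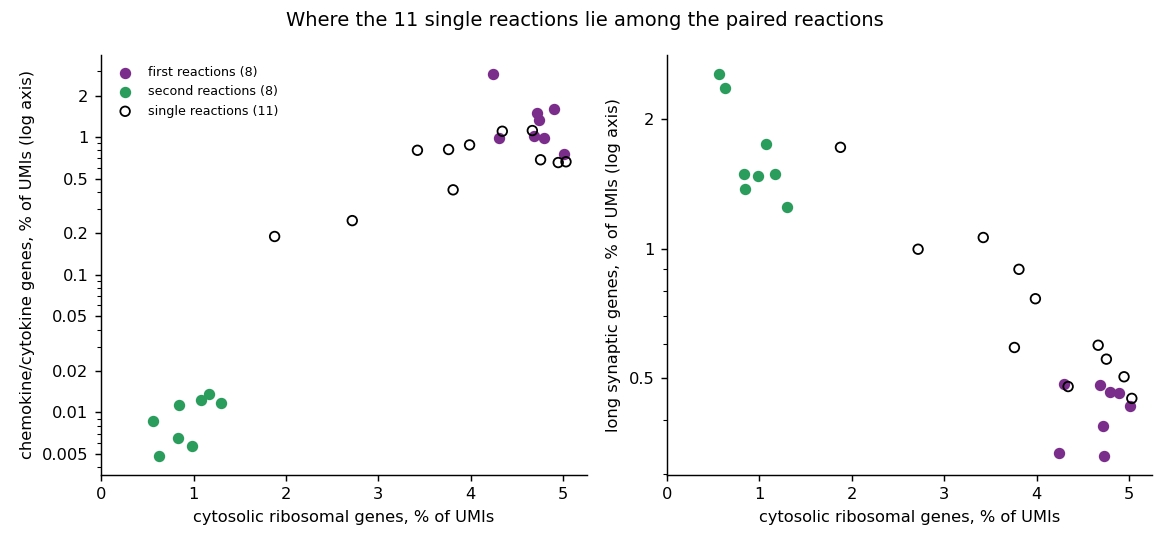
Ribosomal share of UMIs (%) against the chemokine share (left, %, log axis) and the long synaptic share (right, %, log axis) of each reaction; purple points are first, green second and open circles single reactions. The first and second reactions form separate groups on all 3 shares, and 0 of the 11 single reactions lie in the ribosomal or chemokine range of the second.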

How the data were processed

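For dorDG and venDG the authors deposited unnormalised UMI counts (genes by cells), made with Cell Ranger from 10x Genomics 3′ libraries, with cells filtered and typed with Seurat 3 (the submitters' processing notes name these tools and the build rn5). The authors' annotation of dorDG gave cell type names. Labels list 4 libraries per reaction, which cell names do not separate. In venDG, 170 columns with a second suffix on the reaction name, of which 167 repeat a barcode of the reaction, were left out.

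Counts were summed per reaction and tested with the edgeR 4.0.16 quasi-likelihood F-test (R 4.3.3, TMM, replicate as block) over genes that averaged 0.5 or more UMIs per 10000. Within a cell type, pairs with at least 5 cells in both reactions were used. A call required a 1.25-fold change or more and p ≤ 0.05 after Benjamini-Hochberg adjustment. The SE of a log2 fold change was derived from this test, as the size of the change divided by the square root of the F statistic. Values per reaction were compared by exact two-sided sign-flip permutation tests, adjusted over 30 measures. The fits were tested on simulated data. DESeq2 1.42.0, other scalings, filters and thresholds, pairs summed by number, and leaving out each replicate were alternatives. Intervals and floors cover counting error only, and p-values measure the spread between these samples.

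The pairing comes from the labels, which give both reactions 1 replicate. As a check, the deviations of both reactions from their group means over genes correlated at −0.0748 to 0.245 within a replicate and at −0.266 to 0.194 between replicates of a region, with 4 of 8 pairs over 0.1.

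Named genes are the 10 highest and 10 lowest called genes of 1 sign in 8 of 8 pairs at 1 or more UMI per 10000 on average, without unnamed loci, up to 4 members per list of the highest level, and 3 and 3 by region and cell type. Other genes given with a value were chosen after their values were seen. The members and lists were chosen with earlier results of these data known. Promoters are RefSeq windows of GRCr8 matched by symbol (27457 symbols). The NF-kB and CArG motifs were widened from single spellings to the full consensus after the narrower searches had been seen. No doublet caller was run, and protein lengths are not analysed here. Some genes that the rules name are not reported here.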

Additional observations from a re-analysis of the deposited data

Results flagged for a closer look

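Of 116 groups of 4 to 8 reactions examined, 22 (19%) held a reaction far from the others by Dixon's criterion, which chance alone meets in about 1 of 20 groups. Among the second reactions, dorDG FT replicate 1, with 23 cells, was the highest in median UMIs per cell (5323, next 2723) and genes per cell (2782, next 1722). The second reaction of venDG FT replicate 2 was the lowest in genes per cell thinned to 1000 UMIs (623, next 732) and the highest in the lysosome share (0.761%, next 0.311%), and it also had the highest microglial share of the second reactions.

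The first reaction of dorDG Sham replicate 2 was the highest in the chemokine share (2.89%, next 1.60%), in Ccl3 (115.3 UMIs per 10000) and in Cxcl2 (38.7), the highest in Oligodend2 cells (27.9%) and the lowest in the precursor share (0.0326%). Its second reaction was the highest in the oligodendrocyte share (3.10%) and held the 1 Oligodend2 cell (1.3%). The second reaction of venDG FT replicate 1 was the highest in the inhibitory share (0.148%), in Fos (0.198 UMIs per 10000, next 0.0503) and in Pdzrn3 (5.30, next 2.26). The second reaction of venDG Sham replicate 1 was the highest in the mural (0.0701%) and choroid plexus shares (0.0193%).

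The first reaction of venDG FT replicate 2 was the highest in the astrocyte share (1.26%) and the lowest in Fos (5.68 UMIs per 10000, next 12.8). The second reaction of dorDG FT replicate 2 was the highest in ExcitNeuron (27.5% of cells) and Microglia2 cells (8.75%). Kcnj3 was highest in the second reaction of dorDG Sham replicate 1 (6.33 UMIs per 10000), and Kctd16 was highest among the first reactions in dorDG FT replicate 1 (1.24).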

How the results depend on the processing

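Over the 8 pairs edgeR called 3392 genes. Under DESeq2 it was 3391, with thinned pairs (chosen after seeing the data) 3296, with the pairs summed by number 3228, and without dorDG FT replicate 1 3268. Without the replicate block, that is without the pairing, it was 3405, with 2795 in dorDG, 2722 in venDG, 434 in Endothelial and 1350 in Oligodend1 cells, and the block moved a count by over 1.5 times only for genes higher in the second reactions of Endothelial (140 without it) and Oligodend1 cells (297 without it). A fold of at least 2 left 2202 genes (856 higher, and 784 higher in venDG). A mean of at least 2 UMIs per 10000 left 670 (329 higher, 341 lower), 660 in dorDG (330 and 330) and 615 in venDG (289 and 326), and turned Ddx5 (0.42), Hnrnpa2b1 (0.20), Itm2a (0.0226), Slc1a3 (0.84) and Son (0.53). Fewer genes were tested there, and TMM was computed from those genes alone, so the level that fold changes are measured against changed too. Small fold changes can therefore turn with the filter. How far the calls of each gene list depend on it was not tested. Without the filter 7384 were called (3008 and 4376), 4745 in dorDG (3380 lower) and 4924 in venDG (3275 lower). Scaling by total UMIs gave 2037 genes higher in dorDG, 1930 in venDG and 640 in Oligodend1 cells (for which it was chosen after seeing the data), and turned Ddx5 (0.0045) and Mef2c (0.0295).

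DESeq2 called 122 genes in Endothelial (20 higher, 102 lower) and 616 in Oligodend1 cells (20 and 596), and at least 3 cells gave 415 lower in Endothelial cells. Leaving out 1 replicate gave 23 to 200 genes in Endothelial (1 to 62 higher, 22 to 138 lower) and 349 to 805 in Oligodend1 cells (17 to 57, 332 to 748), and 818 to 1134 higher in venDG. Genes per cell differed by −941.9 to −661.2 and the precursor share by −0.0238 to −0.0137 points. The lowest counts were without Sham replicate 2 for Endothelial, without Sham replicate 1 for Oligodend1 and without Sham replicate 1 for venDG.

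With cells passing the study's written filter the difference in cells became −43.9 and passed, and those in genes per cell (−488) and red blood cell share (−0.975 points) no longer passed. As medians over cells, the oligodendrocyte (0.235 points) and precursor (0.00789) differences turned, the choroid plexus difference (−0.00207) no longer passed and the endothelial one did (−0.0504). The causes were not tested. Depth limits what a count of 0 in the 23 cells of dorDG FT replicate 1 can show.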
